A study of Mus musculus with 8 samples.

Results

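The genes Gria1, Gria2, Gria3 and Gria4 encode GluA1 to GluA4, the pore-forming subunits of AMPA-type glutamate receptors. They were examined in cortex that lacked Nova2, a splicing regulator of neurons. The members were all probe sets whose annotation names exactly one of these 4 genes. There were 121 of them among 391597 probe sets, with 24 for Gria1, 34 for Gria2, 33 for Gria3 and 30 for Gria4. The family was chosen by the index difference between Nova2 KO and wild type that an earlier analysis of the same arrays had found for a Gria3 probe set. That contrast therefore serves here as a description, and counts of calls are read against the share called over all probe sets.

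AMPA receptors are tetramers of these subunits and carry most fast excitatory transmission in the brain. Each Gria transcript is spliced with either of a pair of mutually exclusive exons, flip and flop, which shape how the receptor desensitizes. The GluA2 transcript is also edited by an adenosine deaminase, and receptors that hold edited GluA2 let little calcium through. In cortex GluA1 and GluA2 are prominent in pyramidal neurons, while GluA4 is known for fast receptors of interneurons.

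The series held 4 Nova2 KO mice and 4 wild type mice of the CD1 strain, each with 1 Affymetrix exon array of cortical RNA taken at postnatal day 10. The deleted part of Nova2 and any further allele are not given in the sources used here. Such an array reads a gene through many probe sets placed along its length. The exons under the probe sets were not analysed here, so none is assigned to flip or flop.

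Across the arrays, medians ran from 7.06 to 7.37 log2 in Nova2 KO and from 7.02 to 7.37 log2 in wild type, and the array numbered 4 had the lowest median of each group. Values within 0.01 log2 of the smallest value of 4 made up 0.991% to 3.34% of an array. Of 16 Nova2 probe sets, 5294108 had the most negative difference, at 6.86 ± 0.45 log2 in Nova2 KO and 8.68 ± 0.14 log2 in wild type (SD, n = 4 each), without overlap and without a call (limma adjusted p = 0.0786). The 16 did not fall as a set. Probe set 4414499 was higher in Nova2 KO, at 8.37 ± 0.09 log2 against 7.67 ± 0.17 log2 in wild type, without overlap or call. Probe set 4355944 was also higher without overlap or call, at 8.80 log2 in Nova2 KO and 8.40 log2 in wild type. Xist, which coats the inactive X chromosome, was high on Nova2 KO arrays 2 and 4 and on wild type arrays 1 and 4, with 10.19 to 11.04 log2, and lay between 4.59 and 5.24 log2 on the other 4. Gria3 lies on chromosome X in the mouse assembly GRCm38.p6, whereas Gria1, Gria2 and Gria4 lie on chromosomes 11, 3 and 9. Differences within the Xist classes are therefore given below for all 4 genes. Slc17a7, the vesicular glutamate transporter of cortical excitatory neurons, had a gene value of 11.98 log2 in Nova2 KO and 12.17 log2 in wild type. The difference was -0.19 log2 (SE 0.11), the groups overlapped and there was no call. Of the 6 measured excitatory neuron markers, 3 lay above and 3 below 0. In a tissue sample, fewer cells of a type and less RNA per cell cannot be told apart.

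The 4 genes as a whole had nearly the same gene value in both groups, with group differences of -0.067 to 0.046 log2. The gene value is the median log2 signal over the probe sets of a gene on an array, taken over those kept by a filter on dim probe sets (mean over the 8 arrays above the 25th percentile, 5.86 log2). All probe sets of Gria1, Gria2 and Gria4 were kept, and 30 of 33 for Gria3. Levels of different genes come from different probe sets and are not set against each other.

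Gria1 encodes the subunit whose insertion at synapses follows activity. Its gene value was 10.70, 10.80, 10.79 and 10.54 log2 on Nova2 KO arrays 1 to 4, against 10.56, 10.80, 10.81 and 10.48 log2 on wild type arrays 1 to 4. The groups overlapped, and array 4 was the lowest in both. The difference was 0.046 log2 (SE 0.11, n = 4 per group), and its 95% interval ran from -0.20 to 0.29 log2.

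For Gria2, which encodes the subunit that sets calcium permeability, the gene value was 10.99, 11.14, 11.10 and 10.94 log2 on the Nova2 KO arrays, against 11.01, 11.21, 11.20 and 10.82 log2 on the wild type arrays. The 4 Nova2 KO values lay inside the wild type range. The difference was -0.015 log2 (SE 0.11), with an interval from -0.26 to 0.23 log2.

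Gria3 had 9.65, 9.76, 9.77 and 9.51 log2 on the Nova2 KO arrays, against 9.74, 9.87, 9.92 and 9.42 log2 on the wild type arrays. All Nova2 KO values again fell inside the wild type range. The difference was -0.067 log2 (SE 0.12), with an interval from -0.33 to 0.20 log2.

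For Gria4 the gene value was 9.69, 9.78, 9.73 and 9.45 log2 on the Nova2 KO arrays, against 9.54, 9.82, 9.81 and 9.32 log2 on the wild type arrays. The groups overlapped here too. The difference was 0.041 log2 (SE 0.13), with an interval from -0.24 to 0.32 log2. In all 4 genes the difference was positive among arrays with high Xist and negative among arrays with low Xist. These differences were 0.15 and -0.057 log2 for Gria1 and 0.13 and -0.16 log2 for Gria2. They were 0.052 and -0.19 log2 for Gria3 and 0.19 and -0.11 log2 for Gria4. The pattern was thus not particular to Gria3, and with 2 arrays in each cell it was not tested.

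None of the 4 genes passed limma's test with Benjamini-Hochberg adjustment at 0.05 over 11992 genes, of which 0.208% passed in either direction. None had an unadjusted p under 0.05, against 11.6% of all genes. By direction, 0.0917% of all genes passed as higher and 0.117% as lower in Nova2 KO. None of the 4 was free of overlap between groups, against 5.06% of all genes that lay higher and 2.5% that lay lower in Nova2 KO. In fold terms the intervals reached at most from 0.794 to 1.25, which bounds the change of the whole transcript for all 4 genes. The median difference over all genes was 0.022 log2.

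Much of the spread between arrays was shared by the 4 genes. Over the 8 arrays the gene values correlated between members with Pearson's r from 0.859 to 0.977, and with the array median with r from 0.938 to 0.969. These points share the array and its overall brightness, so the correlations are descriptions. When each array was centred on its median, the SD in wild type was 0.055 log2 for Gria1, 0.028 for Gria2, 0.063 for Gria3 and 0.082 for Gria4. Before centring the wild type SDs were 0.17, 0.18, 0.22 and 0.24 log2. Centring left the group differences between -0.063 log2 (Gria3) and 0.050 log2 (Gria1), and both groups still overlapped for all 4 genes.

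**Figure D1:**
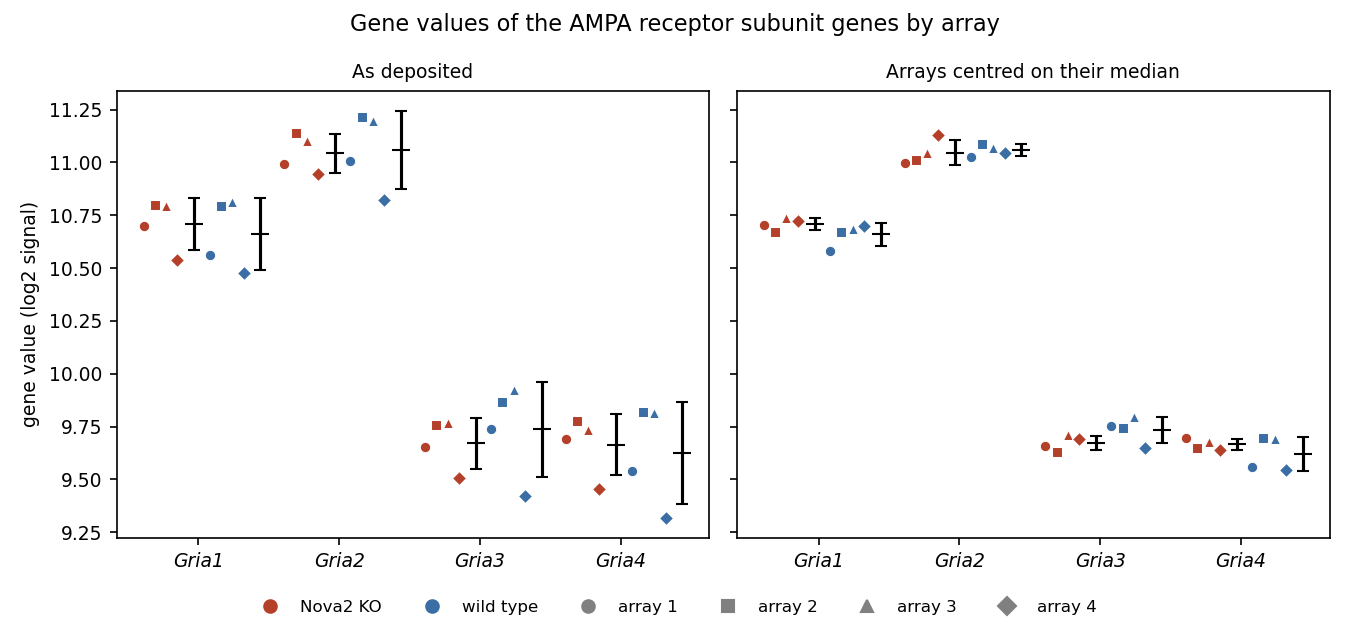
Gene values (log2 signal) of Gria1 to Gria4 on each array, as deposited (left) and with every array centred on its median (right). Symbols mark the array number, and black bars give the mean ± SD of 4 arrays. In both panels Nova2 KO and wild type arrays overlap for every gene, and the spread within groups is smaller on the right (wild type SD of Gria3 0.063 log2, against 0.22 log2 on the left).

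The genes whose values over the 8 arrays were most like those of the members were Rian, a long noncoding RNA (r = 0.996 with Gria2), Ttc14 and Rictor for Gria2, and Ercc6l2, Zbed4 and Gprasp1 for Gria4 (r from 0.988 to 0.994). For Gria3 they were Pkdcc, Mier1 and Rnf166 (0.989 to 0.991), and for Gria1 Fgf14, Il18bp and Med13 (0.983 to 0.985). These likenesses share the array brightness described above.

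Within the genes, 1 Gria3 probe set passed the threshold, and 5 other kept probe sets had index values without overlap between groups but no call. Over all probe sets tested, 0.0133% passed and 4.12% had no overlap, so the count without overlap among the 118 kept members is near that share. The within-gene index subtracts the gene value from the log2 signal of each probe set on that array, so that it shows whether a segment gains or loses signal relative to its gene. Over all probe sets of a gene, the mean signals in Nova2 KO and wild type correlated with r = 0.970 for Gria1, 0.994 for Gria2, 0.985 for Gria3 and 0.996 for Gria4 (24, 34, 33 and 30 probe sets). The value for Gria3 was 0.995 without probe set 4846078. Across probe sets these correlations reflect how brightly each probe set responds, which both groups share.

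The Gria3 probe set 4846078 had signals of 7.51, 7.82, 7.75 and 7.59 log2 on Nova2 KO arrays 1 to 4, against 5.88, 6.65, 6.34 and 5.39 log2 on wild type arrays 1 to 4. Every Nova2 KO array lay above every wild type array, by at least 0.86 log2. The signal averaged 7.67 ± 0.14 log2 in Nova2 KO and 6.07 ± 0.55 log2 in wild type (SD, n = 4 each), a difference of 1.60 log2 (SE 0.25) or 3.03-fold. The wild type arrays were spread wider than the Nova2 KO arrays.

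Relative to the gene, the index of probe set 4846078 was -2.14, -1.94, -2.01 and -1.92 log2 in Nova2 KO, against -3.85, -3.21, -3.58 and -4.04 log2 in wild type. The index difference was 1.67 log2 (SE 0.17, 95% interval from 1.28 to 2.05) or 3.18-fold. Since the gene value of Gria3 differed by only -0.067 log2, nearly all of the index difference came from the signal of the probe set itself. This is the value through which the family was chosen, and it is given as a description.

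The wild type signal of probe set 4846078 lay close to the filter value of 5.86 log2. No array went below 4 log2, as if a constant had been added to the linear values, and such a constant compresses differences of dim probe sets. With that constant taken as 16 and replaced by 1, the index difference was 1.96 log2. The group mean of wild type (6.07 log2) was itself above the filter, so the probe set did not depend on Nova2 KO to be kept.

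The index of probe set 4846078 was past the threshold over 195014 probe sets, and its signal was not past the threshold over 293697. In 20 other settings tried the index difference ran from 1.52 to 1.96 log2, and it was past the threshold in only 7 of them. Since the groups do not overlap, leaving arrays out could not change its sign, and nothing is read from that sign. Leaving out a single array ended the call in 7 of 8 cases, and it was kept without wild type 2 (1.82 log2). The other 7 cases gave 1.54 to 1.71 log2. By contrast, the signal passed when the arrays were centred on their median (1.60 log2), quantile normalized (1.59 log2) or adjusted for the array median (1.61 log2).

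For probe set 4846078 the values within each Xist class are a description, since groups that do not overlap give a positive difference in any split. Among arrays with high Xist the signal averaged 7.70 log2 in Nova2 KO (arrays 2 and 4) and 5.63 log2 in wild type (arrays 1 and 4), a difference of 2.07 log2. Among arrays with low Xist it averaged 7.63 log2 in Nova2 KO (arrays 1 and 3) and 6.50 log2 in wild type (arrays 2 and 3), a difference of 1.13 log2. The index differed by 2.02 log2 with high Xist and by 1.32 log2 with low Xist. With 2 arrays in each cell the contrast between these differences was not tested, and wild type arrays 1 and 4 also had the lowest medians of their group. With Xist as a covariate the index difference was 1.68 log2, and the call was lost.

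**Figure D2:**
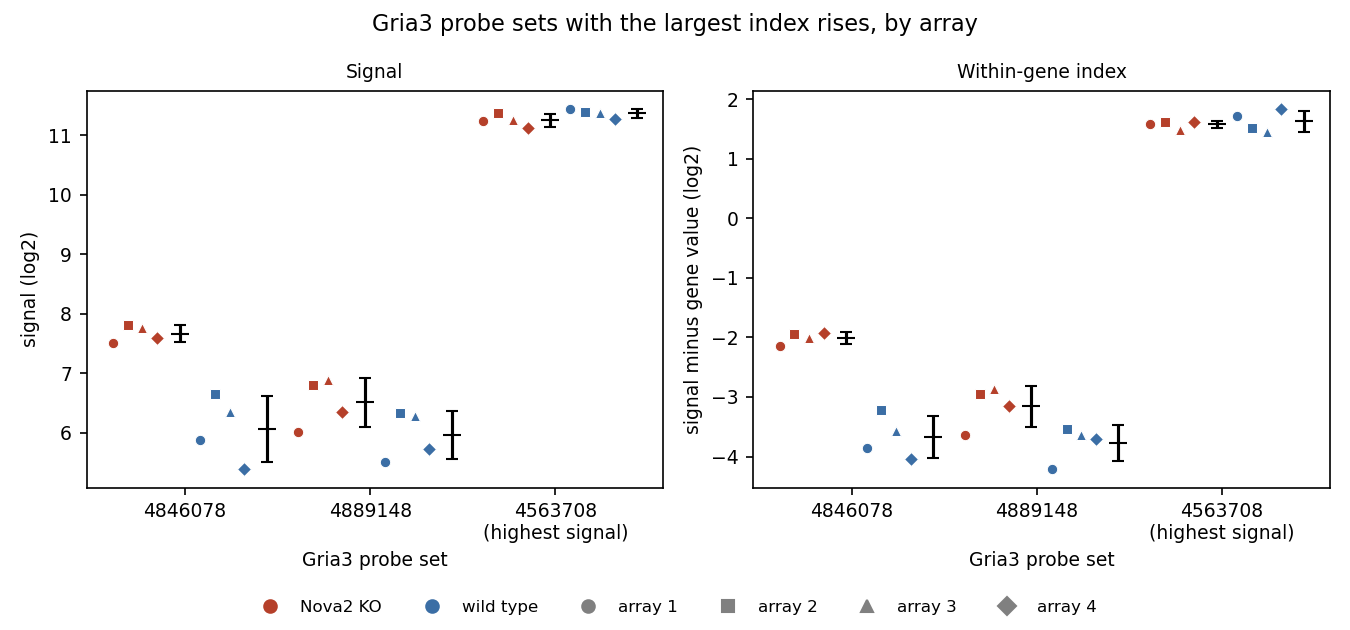
Signal (left) and within-gene index (right), both log2, of Gria3 probe sets 4846078 and 4889148 and of the Gria3 probe set with the highest signal, on each array. Symbols mark the array number, and black bars give the mean ± SD of 4 arrays. Nova2 KO arrays lie between 7.51 and 7.82 log2 for 4846078, above wild type arrays at 5.39 to 6.65 log2, while the groups overlap in the signal of the other probe sets shown.

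A further dim Gria3 probe set, 4889148, had 6.02, 6.80, 6.89 and 6.35 log2 on the Nova2 KO arrays, against 5.52, 6.33, 6.28 and 5.72 log2 on the wild type arrays. The highest values were on Nova2 KO arrays 2 and 3, and the groups overlapped. Its index difference was 0.62 log2 (SE 0.20), which did not pass. It was 0.90 log2 among arrays with high Xist and 0.34 log2 among arrays with low Xist.

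The 3 Gria3 probe sets under the filter were close to the smallest values. Probe set 5427527 had 5.33, 5.07, 5.97 and 5.001 log2 in Nova2 KO, against 4.67, 4.96, 5.20 and 4.57 log2 in wild type. Its index values did not overlap (difference 0.56 log2), although its signals did. Probe sets 5314725 (index difference -0.34 log2) and 5519561 (0.038 log2) overlapped on both scales.

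The bright Gria3 probe sets had no call, and 2 of them, 4399651 and 4867113, had lower index values in Nova2 KO without overlap (-0.19 and -0.13 log2). Over all probe sets tested, 2.05% were lower without overlap. The probe set with the highest signal, 4563708, had 11.24, 11.38, 11.26 and 11.12 log2 in Nova2 KO, against 11.45, 11.39, 11.37 and 11.27 log2 in wild type, an index difference of -0.055 log2 (SE 0.11). Of the 23 Gria3 probe sets with a mean of at least 9 log2, 21 had a lower signal in Nova2 KO, but by 0.27 log2 at most, and none passed. Their index differences ran from -0.20 to 0.18 log2. The largest negative ones were those of 5474201 (-0.20 log2, SE 0.091) and 5025530 (-0.19 log2, SE 0.091).

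Probe set 5474201 had 10.96, 10.97, 10.93 and 10.67 log2 in Nova2 KO, against 11.14, 11.43, 11.31 and 10.72 log2 in wild type. Probe set 5025530 had 10.56, 10.38, 10.42 and 10.18 log2 in Nova2 KO, against 10.66, 10.74, 10.83 and 10.34 log2 in wild type. For both, wild type array 4 lay within the Nova2 KO range.

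Gria1 had no probe set past the threshold, and its index differences ran from -0.38 to 0.37 log2. The most negative was that of 5494669, with signals of 10.18, 10.25, 10.35 and 9.85 log2 in Nova2 KO, against 10.52, 10.62, 10.62 and 10.19 log2 in wild type. The signals overlapped through wild type array 4, but the index did not: it was -0.52, -0.55, -0.44 and -0.69 log2 in Nova2 KO, against -0.04, -0.18, -0.19 and -0.28 log2 in wild type. The difference was -0.38 log2 (SE 0.095), and no setting tried gave a call. Since the index groups do not overlap, leaving arrays out could not change its sign.

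The next most negative Gria1 probe set, 5361401, had 10.13, 10.27, 9.72 and 9.80 log2 in Nova2 KO, against 10.30, 10.53, 10.34 and 9.80 log2 in wild type (index difference -0.31 log2, SE 0.15). On the positive side, 4493839 had 10.25, 10.83, 11.11 and 10.58 log2 in Nova2 KO, against 9.88, 10.44, 10.56 and 10.22 log2 in wild type (0.37 log2, SE 0.17). Groups overlapped for both. Probe set 4920236 (0.15 log2, SE 0.12) had 11.26, 11.33, 11.67 and 11.13 log2 in Nova2 KO, against 11.002, 11.39, 11.08 and 11.14 log2 in wild type, with Nova2 KO array 3 the highest. The probe set with the highest Gria1 signal, 4788418, had 11.69, 11.79, 11.66 and 11.41 log2 in Nova2 KO, against 11.69, 11.84, 11.76 and 11.40 log2 in wild type.

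Gria2 was bright in 22 of its 34 probe sets, and the remaining 12 had a mean under 9 log2. The bright ones had index differences from -0.16 to 0.43 log2, and the 12 dim ones from -0.36 to 0.59 log2, with a larger spread within groups (median residual SD of the index 0.11 log2 for bright and 0.37 log2 for dim). No Gria2 probe set passed.

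The largest positive Gria2 index difference was at 4565518 (0.59 log2, SE 0.25), with 9.21, 9.72, 9.19 and 8.39 log2 in Nova2 KO, against 8.14, 9.08, 8.89 and 8.10 log2 in wild type. Next came 5606238 (0.54 log2, SE 0.29), with 8.43, 9.42, 8.73 and 8.16 log2 in Nova2 KO, against 7.92, 8.81, 8.59 and 7.30 log2 in wild type. For both, array 4 was low in both groups, and the groups overlapped.

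The most negative Gria2 probe sets were the dim 5459124 (-0.36 log2, SE 0.53) and 5335767 (-0.28 log2, SE 0.21). Probe set 5459124 ran from 4.68 to 7.40 log2 in Nova2 KO and from 5.15 to 7.15 log2 in wild type, so that its spread exceeded its difference. Probe set 5335767 had 6.34, 7.24, 6.65 and 6.67 log2 in Nova2 KO, against 6.66, 7.51, 7.46 and 6.46 log2 in wild type. At the other end, the probe set with the highest Gria2 signal, 5306937, had 12.68, 12.81, 12.65 and 12.38 log2 in Nova2 KO, against 12.75, 12.69, 12.63 and 12.27 log2 in wild type (index difference 0.059 log2, SE 0.11).

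Gria4 varied least among the 4, with index differences from -0.25 to 0.29 log2 over its 30 probe sets and no index value set apart between groups. Its extremes were 4681315 (0.29 log2, SE 0.18) and 4507267 (-0.25 log2, SE 0.13). Probe set 4681315 had 9.47, 9.85, 10.43 and 9.68 log2 in Nova2 KO, against 9.41, 9.82, 9.66 and 9.22 log2 in wild type, with Nova2 KO array 3 the highest. Probe set 4507267 had 8.53, 8.57, 9.03 and 8.66 log2 in Nova2 KO, against 8.82, 9.02, 9.06 and 8.74 log2 in wild type.

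The remaining named Gria4 probe sets also overlapped between groups. Probe set 4500507 (0.12 log2, SE 0.15) had 10.02, 10.03, 10.43 and 9.39 log2 in Nova2 KO, against 9.78, 10.05, 10.01 and 9.38 log2 in wild type. Probe set 5106116 (-0.20 log2, SE 0.13) had 9.37, 9.29, 9.58 and 9.28 log2 in Nova2 KO, against 9.54, 9.54, 9.57 and 9.50 log2 in wild type. The probe set with the highest Gria4 signal, 4468352, averaged 11.34 ± 0.15 log2 in Nova2 KO and 11.37 ± 0.19 log2 in wild type (SD, n = 4 each).

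**Figure D3:**
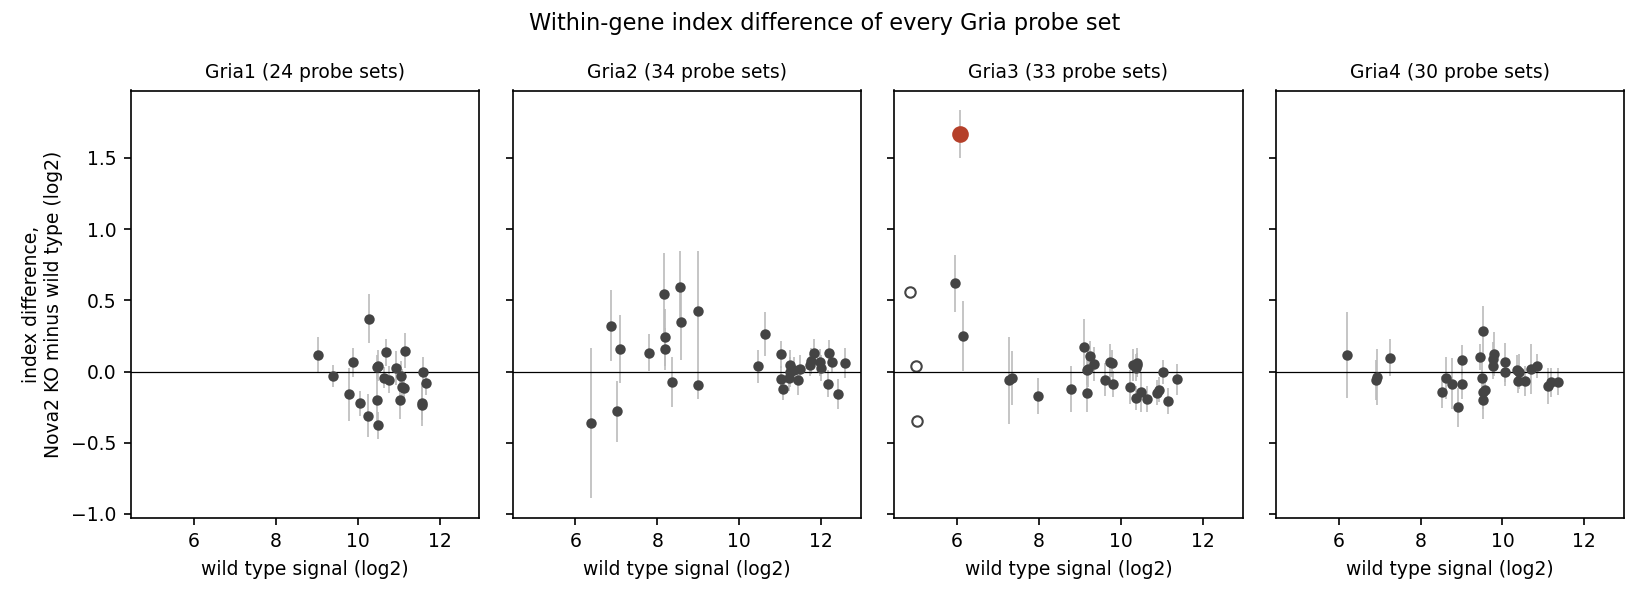
Within-gene index difference (Nova2 KO minus wild type, log2) of every Gria probe set against its wild type mean signal (log2), 1 panel per gene. Bars give the standard error of the limma fit, open circles are the 3 Gria3 probe sets under the filter, and the red point is 4846078. The red point lies at 1.67 log2, while every probe set with a mean of at least 9 log2 lies between -0.38 and 0.43 log2.

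Over the 118 kept probe sets of the 4 genes, 1 passed for the index, 4846078, against 0.0133% of all probe sets tested (0.00564% higher and 0.00769% lower in Nova2 KO). This contrast chose the family, so nothing is read from that count. An unadjusted p under 0.05 was found for 5 of 118, against 6.76% of all. The index did not overlap between groups for 6 of 118, against 4.12% of all (2.07% higher and 2.05% lower in Nova2 KO). Of these, 4846078 was higher in Nova2 KO, and 5494669 and 5240081 of Gria1, 5244969 of Gria2, and 4399651 and 4867113 of Gria3 were lower.

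The index differences of these 5 lower probe sets, which all had a mean of at least 9 log2, ran from -0.38 log2 (5494669) to -0.12 log2 (5244969). Those of 5240081, 4399651 and 4867113 were -0.22, -0.19 and -0.13 log2. An absolute index difference above 0.5 log2 was found for 4 of 118 kept probe sets, against 2.75% of all. It was under 0.25 log2 for 103 of 118, against 81.8% of all.

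For the signal, none of the 118 passed limma over all kept probe sets, of which 0.00681% passed, 0.0034% in each direction. There was 1 with an unadjusted p under 0.05 (6.68% of all), and the same probe set, 4846078, was the 1 whose groups did not overlap (5.1% of all, 3.05% higher and 2.04% lower in Nova2 KO). With diffSplice of limma, which pools the spread over the probe sets of a gene, 4846078 was the 1 Gria probe set called, against 0.259% of all.

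The 5 other probe sets whose index over the 8 arrays was most like that of 4846078 lay in Rnf130, Dop1a, Gphn, Scn8a and Aff1 (r from 0.986 to 0.993). Gphn encodes gephyrin, the scaffold of inhibitory synapses, and Scn8a a voltage-gated sodium channel. Their index differences were 2.45 log2 for Gphn, 0.87 log2 for Scn8a, 0.78 log2 for Aff1, 0.43 log2 for Dop1a and 0.35 log2 for Rnf130. All were positive, as the choice by likeness fixes.

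The related glutamate receptor genes had no gene value called and 3 called probe sets. NMDA receptor genes had 2 of 124 kept probe sets called for the index, where 0.0133% of all probe sets were called, both in Grin1, which encodes the obligatory subunit. Grin1 probe set 4423042 had 10.35, 10.38, 10.31 and 9.92 log2 in Nova2 KO, against 8.996, 9.42, 9.23 and 8.90 log2 in wild type. Grin1 probe set 4607922 went the other way, with 8.36, 8.502, 8.65 and 8.15 log2 in Nova2 KO, against 9.54, 9.70, 9.41 and 9.47 log2 in wild type. Their index differences were 1.29 log2 (SE 0.085) for 4423042 and -0.93 log2 (SE 0.096) for 4607922.

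Kainate and delta receptor genes had 1 of 140 kept probe sets called. It was 4489731 of Grik2, a kainate receptor subunit gene, with 8.43, 7.92, 8.29 and 7.59 log2 in Nova2 KO, against 5.72, 6.07, 5.64 and 4.87 log2 in wild type (index difference 2.49 log2, SE 0.16). The wild type mean of 4489731, 5.57 log2, was itself under the filter value of 5.86 log2, unlike that of Gria3 4846078. It was kept only through the Nova2 KO arrays, so it had to differ and nothing is read from its call. The shares of called probe sets were 0.847% for the Gria genes, 1.61% for NMDA and 0.714% for kainate and delta receptor genes, against 0.0133% of all probe sets. The Gria share is the 1 probe set through which the family was chosen, and the kainate and delta share is Grik2 4489731. Nothing is read from either share. The 3 families share the arrays and were not tested against each other.

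No gene that assembles, moves, anchors or edits AMPA receptors passed at the gene level. Of 58 genes on 6 lists, which include the other ionotropic glutamate receptor genes, 49 were measured. None of the 49 passed limma over all genes (0.208% of all genes did), 7 had an unadjusted p under 0.05 (11.6% of all genes did), and 32 lay below 0, with a median of -0.049 log2. Over all genes 55.4% lay above 0, with a median of 0.022 log2.

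Among auxiliary subunits, which bind the receptor and set its gating and trafficking, 10 of 15 were measured, with 6 above and 4 below 0 and a median of 0.027 log2. The lowest p belonged to Nrn1 (-0.35 log2, SE 0.11), which encodes neuritin. Next were Shisa9 (-0.30 log2, SE 0.13), an auxiliary subunit also named CKAMP44, Shisa6 (0.13 log2, SE 0.13) and Cnih3 (0.15 log2, SE 0.16).

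For assembly and trafficking, 17 of 17 genes were measured, 6 above and 11 below 0, with a median of -0.045 log2. Nsf, an ATPase that binds GluA2, averaged 11.21 log2 in Nova2 KO and 11.47 log2 in wild type (-0.26 log2, SE 0.095), and its groups did not overlap. Epb41l1, a membrane skeleton protein that binds GluA1, was at -0.23 log2 (SE 0.095) and did not overlap either, while non-overlap was found for 7.56% of all genes. Grasp, which encodes the scaffold tamalin, was at -0.40 log2 (SE 0.15), and Nsg2 at 0.20 log2 (SE 0.12).

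Synaptic anchoring genes had 7 of 9 measured, 3 above and 4 below 0, with a median of -0.018 log2. Nptx1, a secreted pentraxin that gathers AMPA receptors, averaged 9.18 log2 in Nova2 KO and 9.65 log2 in wild type (-0.47 log2, SE 0.13), without a call. Dlg4, the scaffold PSD-95, was at -0.16 log2 (SE 0.13), Lrrtm4 at 0.092 log2 (SE 0.16) and Lrrtm2 at 0.078 log2 (SE 0.15).

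The adenosine deaminases that edit RNA were at -0.21 log2 (Adar, SE 0.15), -0.10 log2 (Adarb1, SE 0.19) and 0.055 log2 (Adarb2, SE 0.14). Adarb1 encodes the enzyme that edits the GluA2 transcript in its pore segment. Editing itself was not measured by these arrays.

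NMDA receptor genes were below 0 in 6 of 6 measured, with a median of -0.17 log2, and the lowest p were those of Grin2d (-0.18 log2, SE 0.11), Grin3a (-0.15 log2, SE 0.10), Grin1 (-0.18 log2, SE 0.13) and Grin2a (-0.26 log2, SE 0.19). Kainate and delta receptor genes were below 0 in 5 of 6 measured, with a median of -0.076 log2. Grik4 was at -0.23 log2 (SE 0.10), Grik1 at 0.21 log2 (SE 0.16), Grik3 at -0.15 log2 (SE 0.12) and Grid1 at -0.10 log2 (SE 0.13). The gene value of Grik2 was at -0.012 log2 (SE 0.19).

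**Figure D4:**
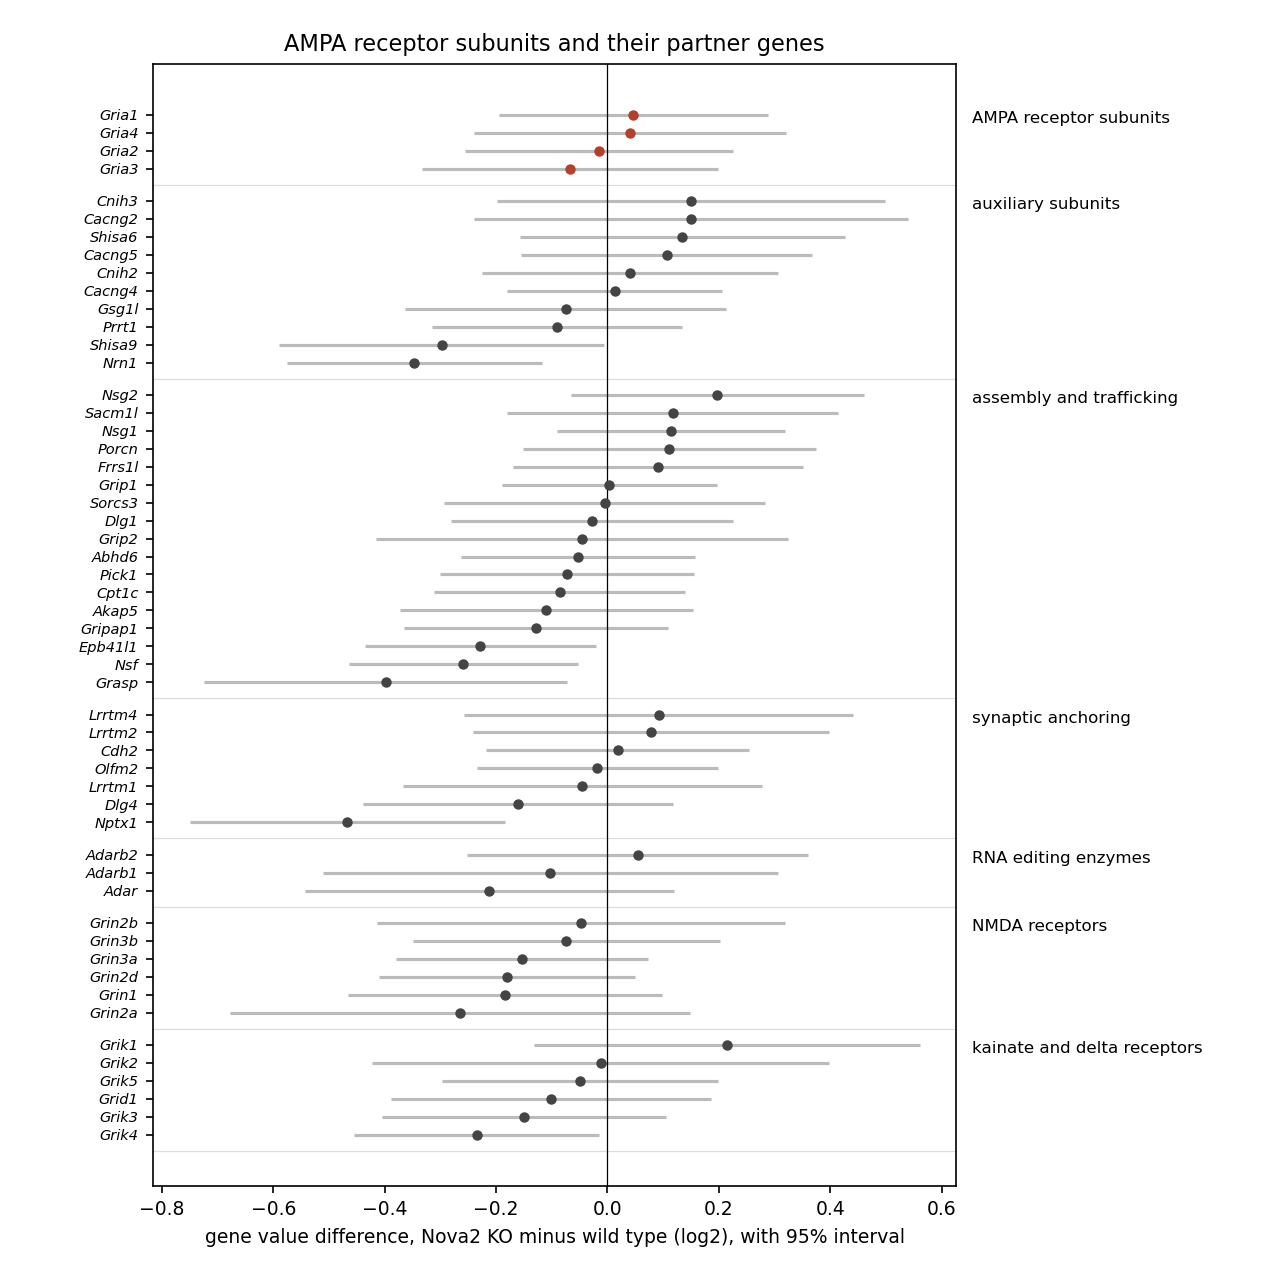
Gene value differences (Nova2 KO minus wild type, log2) of the 4 AMPA receptor subunit genes (red) and of 49 measured partner and related genes (grey), by list, with 95% intervals of the limma fit. The subunit genes lie between -0.067 and 0.046 log2, and the partner genes between -0.47 log2 (Nptx1) and 0.21 log2 (Grik1).

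Markers of other cell types moved with the groups in part. Of 8 oligodendrocyte genes, 7 were measured, and the difference was negative for all 7 (median -0.58 log2). Mal and Mog fell past the threshold (limma adjusted p = 0.0251 and 0.0301). The summed linear signal of all 7 measured oligodendrocyte genes ran from 3345 to 4206 in Nova2 KO and from 4810 to 5755 in wild type. For 6 of 7 excitatory neuron genes the summed signal was 8386 to 10006 in Nova2 KO and 10026 to 10347 in wild type, with no member called. Of these genes 3 lay above and 3 below 0, with a median of -0.0069 log2, and a linear sum is weighted to the bright genes. Inhibitory neuron genes (9 of 10 measured) summed to 7901 to 9453 in Nova2 KO and to 7310 to 8392 in wild type. There 7 lay above and 2 below 0, with a median of 0.057 log2. No measured marker of these lists had a mean under 5 log2 in both groups. In 9 further lists no gene passed, and the median differences were -0.10 log2 for astrocytes (6 of 7 measured), -0.10 for oligodendrocyte precursors (6 of 6), -0.18 for microglia (5 of 6) and -0.082 for vessels (6 of 6). They were 0.078 log2 for choroid plexus and ependyma (3 of 4), -0.24 for hippocampus (2 of 3), -0.075 for striatum (2 of 5), -0.032 for thalamus (3 of 3) and -0.72 for the 1 measured of 3 blood genes. The part of cell composition in the Gria3 probe set difference was not tested.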

How the data were processed

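Cortical RNA of 8 mice was measured with 1 Affymetrix exon array each. The authors deposited 1 log2 value per probe set and array, made with PLIER per the submitters' processing notes (version not given). The sources used here name no background correction, between-array normalization or build, and the values were used as deposited. Replicates are separate mice per the series' design text. The number of arrays limits the precision.

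Of 391597 probe sets, 228454 named 1 gene in the platform annotation. Symbols were updated through the GRCm38.p6 gene table, and 12921 genes resulted. Probe sets above the 25th percentile of the mean over all arrays were kept (293697). Gene values needed 3 and the index 5 kept probe sets. Each measure was fitted over the whole table with lmFit and eBayes of limma 3.58.1 in R 4.3.3 (data.table version 1.17.8), for the difference Nova2 KO minus wild type. Tests were two-sided, and the Benjamini-Hochberg threshold was 0.05. The code was tested on simulated data. Figures used Python 3.11.15 with matplotlib 3.10.9.

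The members and lists were chosen with earlier results of these data known. Named for each member were the probe set with the highest signal, the 2 kept ones with the largest rise and the 2 with the largest fall of the index, any called, and the 3 most like genes. Each partner list gave the 4 genes with the lowest p. Grik2 is named besides for its called probe set, and Nova2, Slc17a7, Mal and Mog as checks. The planned order of levels between members was not given, since levels of different probe sets are not comparable. Other settings were another filter, gene summary, scaling, offset, variance model and tool, covariates, blocks and left-out arrays. Deviations of same-numbered arrays from their group means correlated with r from 0.082 to 0.521 over the kept probe sets. There every array but wild type 3 correlated best with its own number (wild type 3: 0.082, against 0.362 with another). Over gene values Nova2 KO arrays 1 and 3 did not either. Since this did not hold for every array, the numbers were not taken as pairs. Whether they mark pairs or batches was not tested. Besides 6 partner lists, 12 marker lists were measured.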

Additional observations from a re-analysis of the deposited data

Results flagged for a closer look

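Of 136 groups of 4 arrays looked at, 8 held an array far from the other 3, where chance flags about 1 group in 20. Among the members, wild type array 1 had an index of 1.75 log2 for Gria2 probe set 5306937, against 1.43 to 1.48 log2 on the other wild type arrays. Nova2 KO array 4 had a signal of 10.67 log2 for Gria3 probe set 5474201, against 10.93 to 10.97 log2 on the other Nova2 KO arrays.

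The other flags were gene values of related genes. Nova2 KO array 4 was apart for Grin1 (10.13 log2, others 10.52 to 10.58), Adar (8.76 log2, others 9.19 to 9.26) and Grik4 (8.10 log2, others 8.23 to 8.24). Nova2 KO array 1 was apart for Grid1 (9.43 log2, others 9.11 to 9.15). Wild type array 4 was apart for Grik1 (7.43 log2, others 8.03 to 8.14) and Nptx1 (9.40 log2, others 9.71 to 9.77). Of the 8, 6 fell on an array numbered 4, the array with the lowest median of its group.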

How the results depend on the processing

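The index difference of Gria3 probe set 4846078 lost its call without a filter (1.71 log2), with offset 1 (1.96 log2), with trend and robust eBayes (1.67 log2), with Xist as a covariate (1.68 log2), without both arrays numbered 4 (1.52 log2) and with the replicate number as a block (1.67 log2). In each of these the count of called Gria probe sets was 0, as it was with the filter at the 50th percentile, which removes this probe set, and the cause of the other losses was not tested. Single left-out arrays gave 1.54 to 1.82 log2 and 0 to 1 called. Its signal difference passed, and the count was 1, with median centring (1.60 log2), quantile normalization (1.59 log2) and the array median as a covariate (1.61 log2). It was 1.37 to 1.80 log2 without single arrays, with 0 called.

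Gene values never passed. With the mean over probe sets Gria1 was at -0.014 and Gria2 at 0.063 log2, opposite in sign. Without single arrays they ran from -0.015 to 0.10 log2 for Gria1, -0.095 to 0.036 for Gria2, -0.17 to -0.0055 for Gria3 and -0.061 to 0.11 for Gria4. The index of 5306937 turned to -0.020 log2 with the mean and with diffSplice, and that of 4563708 to 0.0033 log2 without both arrays numbered 4. Left-out arrays also turned the index of 4500507 (-0.0070 to 0.25 log2), 4563708 (-0.11 to 0.016) and 5459124 (-0.80 to 0.040), and the signals of 4468352 (-0.097 to 0.047), 4788418 (-0.12 to 0.040), 5306937 (-0.062 to 0.13) and 5459124 (-0.85 to 0.058). The replicate number as a block also gave 1 called anchoring gene, Nptx1 (-0.47 log2, limma adjusted p = 0.0462, against 0.241 without the block). The block changed no other gene value call on the partner lists, but it ended the index call of the Gria3 probe set, as given above. Not every array correlated best with its own number. List medians moved by less than the spread between replicates.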
